A study of Rattus norvegicus with 6 samples.

Results

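The 10 genes described here form the core of the circadian clock, and their transcripts were measured in beta cells of fed and fasted rats. They are Bmal1 and Clock (the activators), Per1, Per2, Per3, Cry1 and Cry2 (their inhibitors), Nr1d1 and Nr1d2 (the REV-ERB repressors) and Dbp (an output factor). They were chosen by name, as the probe sets to which the platform annotation gives 1 of these symbols alone. The choice was made with earlier results of these data known. A probe set is a group of short probes against 1 transcript. All 10 genes of 14217 named ones were on the array, with 18 probe sets of 31042. Each gene was read on its brightest probe set (highest mean of the 6 arrays), and 8 further probe sets, of 5 genes, served as a check. The cells were freshly sorted beta cells (FACS; 92 ± 3% insulin-positive by the labels) of male Wistar rats of 10 weeks. One group had been fed ad libitum and the other had fasted for 24 h. Each group had 3 isolates, each a pool of 5 rats on 1 array, and no genetic change was made. Cells were frozen within 3 h of killing, and the time of day of killing is not given in the sources used here.

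In mammalian cells BMAL1 and CLOCK bind DNA as a pair, at E-boxes, and switch on the Per, Cry, Nr1d and Dbp genes. PER and CRY proteins then gather and shut the pair off, while REV-ERB proteins repress Bmal1 through elements that ROR receptors also use. The transcripts of Bmal1 and those of Per, Nr1d1 and Dbp therefore peak at opposite times of day. Most peripheral tissues keep such a clock, feeding times can set its phase, and in islets it takes part in the timing of insulin secretion.

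Values are linear array intensities. Changes are log2 ratios of fasted over fed from limma. A gene is given as lower or higher where it changed at least 1.5-fold with an unadjusted p under 0.05. Those are the thresholds of the study, but the test differs from its own. The paper reports far fewer transcripts changed by fasting at them, nearly all lower, so the counts are not comparable. No probe set of any gene passed an adjusted p under 0.05 (0% of 31042), although 4622 had an unadjusted p under 0.05 and 88 passed in a limma fit with robust variance, 9973 in one with array weights and 0 on the linear scale. The array's smallest adjusted p was 0.155. Median intensity was 20.2 to 21.8 on fed arrays, and 17.1, 17.8 and 21.0 on fasted replicates 1, 2 and 3. The median log2 change of all probe sets was -0.20, and -0.02 under quantile normalization and 0.01 with arrays scaled to their 75th percentile. Beta cell markers were bright on every array (7 of 9 markers measured, summed intensity 22730 to 24770), with insulin, IAPP and GLUT2 transcripts among them. Markers of other cells were present as well. Summed acinar markers (9 of 10 measured) lay between 44300 and 51010. The paper proposes that very abundant exocrine transcripts saturated probes on its human islet and pancreas arrays. Sums of bright probe sets may thus not scale with cell content. Summed alpha cell markers (2 of 4 measured, glucagon and Irx2) were highest on fed replicate 2, at 7715 against 3536 to 5788 elsewhere. Summed PP cell, stellate cell and leukocyte markers were highest on that array too (4270, 433 and 129). Duct markers (4 of 5 measured) summed to 353 to 403 on fed and 430 to 536 on fasted arrays. Leukocyte markers (6 of 6 measured) stayed low, at 90.6 to 129. The part of these cells in the values of the clock genes was not tested. With 3 against 3 arrays an exact permutation test of a single value cannot go below p = 0.10.

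Of the 10 clock genes, 2 were lower after fasting, Per1 and Nr1d1, and 1 was higher, Dbp. The other 7 did not pass. Over all probe sets 8.43% were lower and 2.37% higher, and with 1 probe set per gene 9.51% and 2.29%. The split of all probe sets moved with the scaling of the arrays, from 2616 lower and 737 higher to 1501 and 1275 under quantile normalization and 1329 and 1430 with 75th percentile scaling, while that of the clock genes was 2 and 1, and 2 and 2. With 10 genes, counts of 2 and 1 are too small to be read as above these shares. For 3 genes (Bmal1, Per1 and Nr1d1) all fasted values lay below all fed values, and for 2 (Nr1d2 and Dbp) all lay above. Such separation was found in 17.6% (below) and 5.24% (above) of all probe sets, and in 3020 and 819 of all 14217 genes. The median log2 change of the 10 genes was -0.39, against -0.19 for all genes, and 7 of the 10 changes were negative, a share near that of all genes (9521 of 14217). In RNA of a sorted population, fewer cells of a type and less RNA per cell cannot be told apart.

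**Figure D1:**
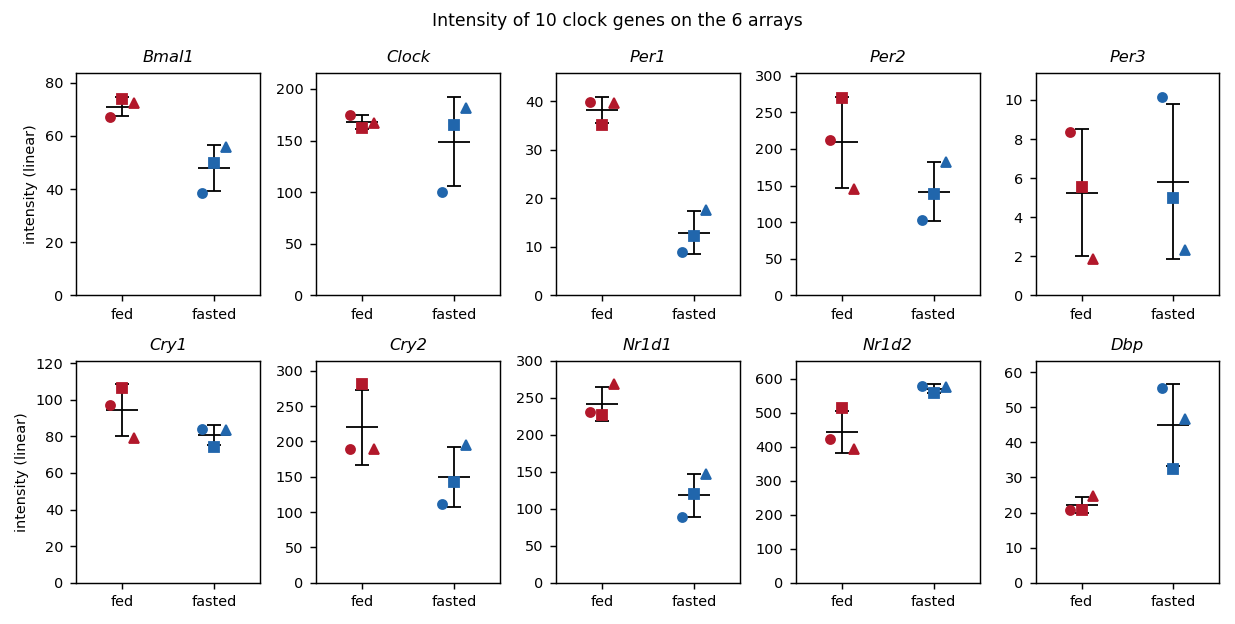
Linear intensity (y axis, from 0, a scale of its own in each panel) of the brightest probe set of each clock gene, fed in red and fasted in blue; circles, squares and triangles are replicates 1, 2 and 3, and black marks give mean ± SD. The groups do not overlap for Bmal1, Per1, Nr1d1, Nr1d2 and Dbp, and fasted replicate 1 is the lowest array for Bmal1, Clock, Per1, Per2, Cry2 and Nr1d1.

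Nr1d1 encodes REV-ERB alpha, the nuclear receptor that represses Bmal1. It measured 230, 227 and 268 in fed and 88.4, 120 and 147 in fasted rats. The dimmest fed array was thus brighter than the brightest fasted one. The mean went from 242 ± 22.9 to 118 ± 29.2 (SD, n = 3 each), a log2 change of -1.06 (standard error 0.20, 95% interval -1.54 to -0.58). Unadjusted p = 0.0016 and adjusted p = 0.176 from limma. It had the largest moderated t in size of the 10 genes. Relative to the median of all probe sets the change was -0.86. The call held under all 18 alternative settings, with log2 changes from -1.23 to -0.81.

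Nr1d2 encodes REV-ERB beta, the paralogue with an overlapping role, and its values did not go the same way. On the brightest of its 3 probe sets it measured 424, 513 and 393 in fed and 580, 556 and 576 in fasted rats. Every fasted array lay above every fed one. The log2 change was 0.37 (standard error 0.11, 95% interval 0.10 to 0.65; unadjusted p = 0.0154 and adjusted p = 0.27 from limma), short of 1.5-fold. The other probe sets gave 0.14 and -0.02, and on both the groups overlapped. With the mean of the 3 probe sets the change was 0.16. With 75th percentile scaling it was 0.62 on the brightest one and passed both thresholds. Among fed arrays the order of Nr1d2 was that of the glucagon transcript Gcg (4426, 7629 and 3532), and among fasted arrays it was the reverse of it (Gcg 4958, 5769 and 5261). Without fed replicate 2 the log2 change of Nr1d2 was 0.48. Its unadjusted p from limma was 0.0537 without fed replicate 1, 0.0508 without fed replicate 3 and 0.0627 without the intensity trend.

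The start region of Nr1d1 is shown because this gene was lower and its promoter is a known target of BMAL1 and CLOCK. RefSeq lists 2 starts for it, and 120 bases from each window of 250 bases before a start are printed (GRCr8, chr10:84231913-84232032, minus strand, and chr10:84229555-84229674, minus strand). Capitals mark the E-box letters CACGTG and the related CACGTT, read on either strand.
Nr1d1 upstream start: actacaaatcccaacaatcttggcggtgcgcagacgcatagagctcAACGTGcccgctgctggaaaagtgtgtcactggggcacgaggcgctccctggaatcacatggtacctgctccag
Nr1d1 downstream start: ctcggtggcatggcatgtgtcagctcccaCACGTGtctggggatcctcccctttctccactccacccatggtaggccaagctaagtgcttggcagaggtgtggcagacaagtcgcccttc
The CACGTG letters begin 191 bases before the downstream start, and the CACGTT letters, on the opposite strand, 174 bases before the upstream one. CACGTG occurs in 6.42% of all 33469 RefSeq windows of this kind (250 bases before to 50 after a start), and CACGTT in 4.83%. Windows were found for 9 of the 10 genes, all but Cry1.

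Dbp encodes a PAR bZIP factor, a direct product of BMAL1 and CLOCK activity that drives genes with D-boxes. It was the only one of the 10 genes that was higher. The fed arrays measured 20.7, 20.8 and 24.7 and the fasted ones 55.5, 32.4 and 46.8, with no overlap. The mean went from 22.1 ± 2.28 to 44.9 ± 11.7 (SD, n = 3 each). The log2 change was 0.99 (standard error 0.27, 95% interval 0.33 to 1.66), with unadjusted p = 0.0104 and adjusted p = 0.249 from limma. Relative to all probe sets it was 1.19. Fasted values were more spread than fed ones, with a coefficient of variation of 26.0% against 10.4%, and fasted replicate 2 was closest to the fed arrays. Dbp had 1 probe set on the array, at the 61.5th percentile of brightness. The call was lost on comparing linear means, each group with its own variance (log2 ratio 1.02, unadjusted p = 0.0724) and with array weights in limma (0.57), which left it just under 1.5-fold.

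The 120 bases before the start of Dbp are printed for comparison with Nr1d1, since both are targets of the same pair and their values went opposite ways (GRCr8, chr1:105312136-105312255, plus strand).
Dbp: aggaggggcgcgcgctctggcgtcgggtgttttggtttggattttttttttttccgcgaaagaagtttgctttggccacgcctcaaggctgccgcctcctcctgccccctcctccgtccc
None of the letters searched (the E-box letters given above, the D-box TTATGTAA, the cAMP response element TGACGTCA and the nuclear receptor half-site AGGTCA) is in the window of Dbp. Bases further than 250 before or 50 after the start were not searched, so sites there would be missed. Whether the letters bear on the opposite changes was not tested.

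Per1 encodes a period protein and responds quickly to cAMP and hormone signals. It measured 39.8, 35.1 and 39.6 in fed and 8.98, 12.3 and 17.6 in fasted rats. Every fasted value was well below every fed one. The means were 38.2 ± 2.65 and 12.95 ± 4.36 (SD, n = 3 each). The log2 change, -1.61, was the largest of the 10 in size (standard error 0.33, 95% interval -2.42 to -0.81). Unadjusted p = 0.0025 and adjusted p = 0.19 from limma. The call held under all 18 alternatives (-1.86 to -1.37). Per1 had 1 probe set, at the 55.7th percentile of brightness, and detection calls were not used here.

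Per2 and Per3, the other period genes, did not pass. Per2 measured 212, 269 and 146 in fed and 103, 139 and 183 in fasted rats, so that the groups overlapped. Its log2 change was -0.56 (standard error 0.29, 95% interval -1.27 to 0.15, unadjusted p = 0.105 from limma), and its dimmer probe set gave -0.52. Without fed replicate 3, the lowest fed array, it was -0.79 and passed (unadjusted p = 0.0364). Per2 followed the order of Gcg among fed arrays and not among fasted ones. Without fed replicate 2 its change was -0.35, and without fasted replicate 1 as well it was -0.14. Per3 was close to the floor of the data. It measured 8.35, 5.57 and 1.85 in fed and 10.2, 4.99 and 2.34 in fasted rats, with 2 of 6 arrays at or below the floor of 3.27, and 4 of 6 on its other probe set. Its log2 change of 0.04 (95% interval -1.23 to 1.31) gives no direction.

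The 5′ flanks of Per1 and Per2 are shown because the 2 genes differed in their calls and Per2 carries the letters known to drive its rhythm. They are 120 bases for Per1 (GRCr8, chr10:54304256-54304375, plus strand) and 200 for Per2 (GRCr8, chr9:99496994-99497193, minus strand).
Per1: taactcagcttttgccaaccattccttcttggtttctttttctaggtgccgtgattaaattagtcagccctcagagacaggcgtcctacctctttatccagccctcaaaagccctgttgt
Per2: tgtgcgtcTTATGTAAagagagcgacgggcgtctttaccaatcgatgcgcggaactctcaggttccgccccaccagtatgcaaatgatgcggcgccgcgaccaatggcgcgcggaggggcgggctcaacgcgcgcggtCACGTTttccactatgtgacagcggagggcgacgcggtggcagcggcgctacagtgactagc
In Per2 the capitals mark the D-box TTATGTAA, 192 bases before the start, and CACGTT, 62 bases before it. The D-box letters occur in 0.893% of all windows. In Per1 none of the letters searched is in the window, and bases outside the windows were not searched. The cAMP response element TGACGTCA is in none of the 11 windows of the 9 genes and in 1.83% of all windows.

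The cryptochromes, which hold the BMAL1 and CLOCK pair off together with PER proteins, did not pass either. Cry1 measured 97.3, 107 and 78.8 in fed and 84.1, 74.1 and 83.4 in fasted rats. Like Nr1d2 and Per2 it followed the order of Gcg among fed arrays and not among fasted ones. The groups overlapped and the log2 change was -0.22 (standard error 0.16, 95% interval -0.59 to 0.16), which turned to 0.03 with 75th percentile scaling and to 0.00 after quantile normalization. Cry2 measured 189, 281 and 190 in fed and 112, 143 and 195 in fasted rats on its brighter probe set. Fasted replicate 3 lay above fed replicates 1 and 3, and the log2 change was -0.56 (standard error 0.25, 95% interval -1.18 to 0.05, unadjusted p = 0.0664 from limma). The other Cry2 probe set went the other way, with 0.17 (95% interval -0.38 to 0.72). Fed replicate 2 was the highest array for Cry2 on both probe sets and was also that with the most Gcg, while among fasted arrays neither probe set followed the order of Gcg. Without it the change of the brighter one was -0.38. Without fasted replicate 3 it was -0.77 and passed (unadjusted p = 0.0221).

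Bmal1, the activator that oscillates, and its partner Clock are the positive limb. Bmal1 measured 67.1, 73.9 and 72.2 in fed and 38.6, 49.8 and 55.7 in fasted rats, and the groups did not overlap. Fed values were 1.48 times the fasted ones by their means, so that Bmal1 stood just short of 1.5-fold. The log2 change was -0.58 (standard error 0.18, 95% interval -1.03 to -0.14), with unadjusted p = 0.0186 and adjusted p = 0.276 from limma. It passed both thresholds without fed replicate 1 (-0.62), without fasted replicate 2 (-0.62) or without fasted replicate 3 (-0.70). The change was nearer to 0, -0.34, under quantile normalization, and -0.34 with 75th percentile scaling. Clock, the histone acetyltransferase partner, measured 175, 162 and 167 in fed and 99.8, 165 and 182 in fasted rats on the brightest of its 4 probe sets. Fasted replicate 1 stood apart and the others overlapped with fed. The log2 change was -0.22 (95% interval -0.78 to 0.34), 0.04 without fasted replicate 1, and 0.02 with 75th percentile scaling. The other Clock probe sets gave -0.28, -0.94 and 0.48, and none passed.

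The 120 bases before the start of Bmal1 are shown because REV-ERB alpha, the product of Nr1d1, is known to act on this promoter (GRCr8, chr1:176766208-176766327, plus strand). Capitals mark AGGTCA, a nuclear receptor half-site, used by REV-ERB and ROR receptors among others. Only these exact letters were searched, so variants of the element are not marked.
Bmal1: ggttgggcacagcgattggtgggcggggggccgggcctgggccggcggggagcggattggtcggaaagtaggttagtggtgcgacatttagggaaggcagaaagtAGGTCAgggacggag
The marked letters begin 15 bases before the start. AGGTCA is a short run of letters found in 16.2% of all windows and also in that of Nr1d2. Of the pair, Nr1d1 and Bmal1 both had values below those of fed rats on all fasted arrays.

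**Figure D2:**
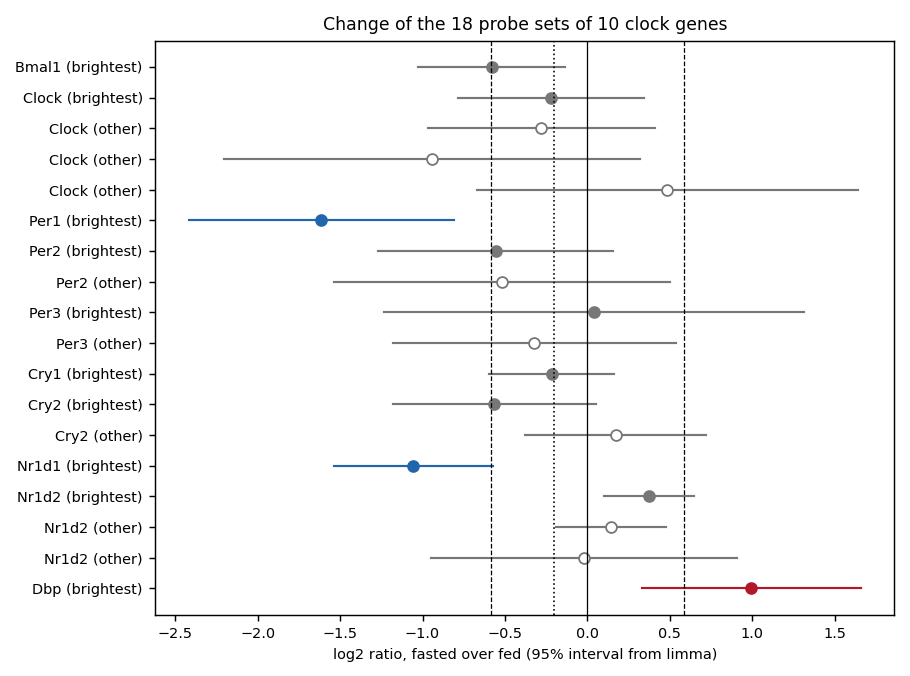
Log2 ratio of fasted over fed (x axis) for all 18 probe sets of the 10 genes, with 95% intervals from limma; filled points are the brightest probe set of a gene, blue and red are lower and higher at 1.5-fold (dashed lines) and unadjusted p under 0.05, and the dotted line is the median of all probe sets. Per1 and Nr1d1 stand at -1.61 and -1.06 and Dbp at 0.99, while the other probe sets of Clock and Cry2 spread to both sides of 0.

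Genes can be compared within an array, where a brightness factor shared by all probe sets cancels, but not one that differs with intensity. For this, the log2 value of one gene minus that of another was taken on each array and set to 0 at the mean of the fed arrays. Dbp minus Nr1d1 was -0.02, 0.01 and 0.01 on fed arrays and 2.78, 1.56 and 1.81 on fasted ones. All fasted arrays thus had more Dbp for their Nr1d1 than any fed one. This follows from the 2 genes lying apart in opposite directions and adds no test. The SD was 0.02 on fed and 0.65 on fasted arrays. Dbp minus Bmal1 was 2.22, 1.07 and 1.44 on fasted arrays, with a fed SD of 0.14 and a fasted SD of 0.585. Nr1d2 minus Nr1d1, the pair of paralogues, was 1.84, 1.34 and 1.10 on fasted arrays and -0.32 to 0.31 on fed ones. Per1 minus Bmal1 was -1.21, -1.13 and -0.76 on fasted arrays, and Nr1d1 minus Bmal1 -0.57, -0.50 and -0.37. In that pair both genes had lower fasted values, and Nr1d1 had moved further than Bmal1 on each fasted array. These differences show unequal change of 2 transcripts and were not tested. Fasted replicate 1, the array of lowest median intensity, lay furthest from the fed mean in each pair.

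**Figure D3:**
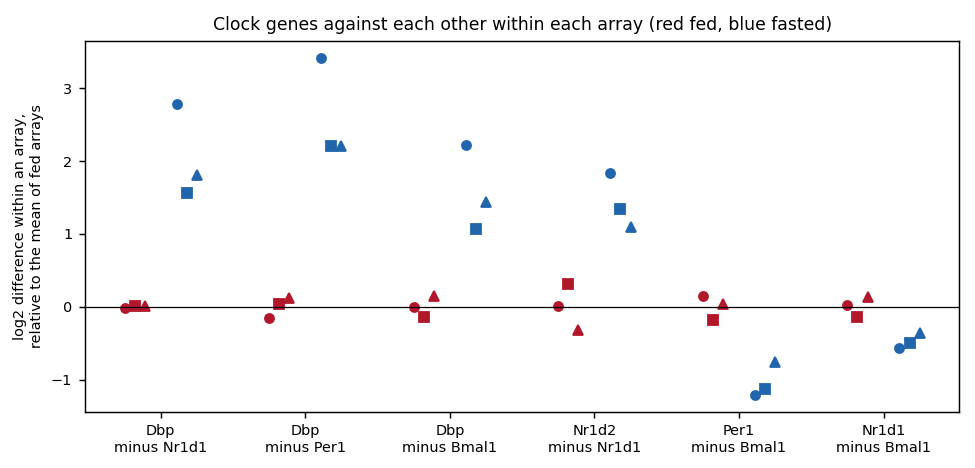
Log2 difference between 2 clock genes within each array (y axis), relative to the mean of the fed arrays; red fed, blue fasted, and circles, squares and triangles are replicates 1, 2 and 3. Fasted arrays lie at 1.56 to 2.78 for Dbp minus Nr1d1 and below all fed arrays for Per1 and Nr1d1 minus Bmal1.

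On the fasted arrays Bmal1, Clock, Per1, Per2, Cry2 and Nr1d1 were lowest on replicate 1 and highest on replicate 3, the order of the arrays' median intensity (17.1, 17.8 and 21.0). With each array scaled to its 75th percentile, the log2 changes were -1.37 for Per1, -0.81 for Nr1d1 and 1.24 for Dbp, and all 3 passed. Without fasted replicate 1 they were -1.38, -0.86 and 0.82, and passed as well.

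The genes whose values over the 6 arrays were most like those of Nr1d1 were Adprh (Pearson r = 0.999), Zmym6 (0.998), Sec61a1 (0.996), Rpf2 (0.996) and Cog2 (0.995). Sec61a1, a channel protein of the endoplasmic reticulum, measured 947, 846 and 1034 in fed and 377, 504 and 582 in fasted rats. Those most like Dbp were Man1c1 (0.997), Smyd3 (0.991), Rtn4 (0.984), Gfer (0.983) and Uap1l1 (0.980). Man1c1, a mannosidase of the Golgi, measured 108, 110 and 120 in fed and 169, 132 and 161 in fasted rats. Of 9197 genes above median brightness, 533 had r over 0.95 with Nr1d1 and 21 with Dbp. These are descriptions over 6 arrays that share the split into fed and fasted and the brightness of each array.

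Around the 10 genes, 6 further lists of clock regulators, outputs and inputs were examined, also chosen with earlier results of these data known. Of their 74 genes 65 were measured. At the same thresholds 8 were lower and 2 higher, with a median log2 change of -0.12 against -0.19 for all genes. Of all genes 9.51% were lower and 2.29% higher, so these counts are near the shares of all genes, and none of the 6 lists is large enough for its own count to be read against them. Of 10 other transcription factors of the clock, 1 was lower, Nfil3 (E4BP4), the repressor that competes with DBP at D-boxes. It measured 889, 622 and 770 in fed and 655, 382 and 450 in fasted rats, and the groups overlapped. Its log2 change was -0.64 (standard error 0.23, adjusted p = 0.297 from limma). The call of Nfil3 was lost on leaving out fed replicate 1 or 3, or fasted replicate 2 or 3 (-0.62 to -0.47) and with 75th percentile scaling (-0.39), and 9 of 18 alternatives lost it in all. Npas2, which can stand in for Clock, had -0.46 and did not pass, but did without fasted replicate 3 (-0.63).

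Of 17 kinases, phosphatases and ubiquitin ligases that act on clock proteins, 3 were lower and none higher, beside 9.51% and 2.29% of all genes, and the list's median of -0.11 lay above that of all genes. Btrc, the ligase subunit that marks PER proteins for breakdown, had a log2 change of -0.79 (standard error 0.29). Usp2, a deubiquitinase with a rhythmic transcript, had -1.20 (standard error 0.47), and it was dim, with fed values of 30.2, 17.1 and 14.8 and fasted values of 5.34, 10.8 and 11.0. Ddb1, a ligase adaptor, had -0.66 (standard error 0.16), and 1 of its other 2 probe sets passed as well. The call of Ddb1 was lost under 5 of 18 alternatives, without fasted replicate 1 (-0.50), without that array and fed replicate 2 (-0.50), with quantile normalization (-0.51), with 75th percentile scaling (-0.42) and with array weights (-0.43). Those of Btrc and Usp2 were lost when any array but fasted replicate 3 was left out (-0.85 to -0.63 for Btrc, -1.41 to -0.86 for Usp2), under quantile normalization (-0.57 and -0.99), with 75th percentile scaling (-0.55 and -0.96) and on linear means (-0.73 and -1.20). Csnk2b, a subunit of casein kinase 2, had -0.39 and did not pass, and had -0.14 with 75th percentile scaling. Of 11 cofactors 0 passed, with Nampt, which makes NAD, at 0.22 (unadjusted p = 0.0633 from limma) and Sfpq, a PER partner, at -0.45 (standard error 0.18, adjusted p = 0.322). Sfpq had -0.21 with 75th percentile scaling and -0.78 with array weights, where it passed, as it did without fed replicate 2 and fasted replicate 1 (-0.61).

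Of 9 measured genes that the clock drives in many tissues, 2 were lower and 1 higher, too few genes to be read against the 9.51% and 2.29% of all genes. Klf10, a Krüppel-like factor, measured 407, 527 and 374 in fed and 129, 214 and 230 in fasted rats, with no overlap. Its log2 change was -1.22 (standard error 0.25, adjusted p = 0.191 from limma), and the call held under all 18 alternatives. Rgs16, a regulator of G protein signalling, had -0.88 (standard error 0.27), and its unadjusted p rose to 0.0588 when fed replicate 1 was left out and to 0.0502 when fed replicate 3 was. Tspan4, a tetraspanin, was higher, with 25.7 ± 3.40 and 53.7 ± 22.6 (SD, n = 3 each). Its call was lost without any of the fed replicates or without fasted replicate 2 (log2 change 0.88 to 1.07), on linear means (1.06) and without fed replicate 2 and fasted replicate 1 together (0.75). Wee1, a cell cycle kinase with an E-box promoter, measured 138, 147 and 129 in fed and 190, 207 and 190 in fasted rats. Its groups did not overlap and its log2 change was 0.50 (standard error 0.10, adjusted p = 0.177 from limma), short of 1.5-fold, while its other probe set gave -0.01. Wee1 passed both thresholds under quantile normalization (0.67), with 75th percentile scaling (0.75) and with array weights (0.59).

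Per1 is also induced through cAMP and glucocorticoids, and genes of both routes were looked at. Of 13 cAMP-responsive and immediate early genes 2 were lower and none higher, with a median of -0.40, or -0.21 relative to all genes. The count is near the 9.51% of all genes that were lower. In 7 of the 13 all fasted values lay below all fed ones and in 0 above, against 3020 and 819 of all 14217 genes. The list was chosen with earlier results of these data known and was not tested as a set. Nr4a2, an orphan receptor induced by cAMP, measured 123, 94.3 and 112 in fed and 41.9, 60.5 and 55.6 in fasted rats. The groups were apart and the log2 change was -1.07 (standard error 0.19, adjusted p = 0.176 from limma), and the call held under all 18 alternatives. Crem, the cAMP-responsive modulator, had -0.76 (standard error 0.27), and 2 of its other 5 probe sets also passed. The call of its brightest probe set was lost without fed replicate 1, 2 or 3 (-0.79 to -0.74) and without fasted replicate 1 (-0.43), with 75th percentile scaling (-0.51), with array weights (-0.40), with the higher floor and on linear means, and 9 of 18 alternatives lost it in all. Egr1 and Junb, immediate early factors, had -0.52 and -0.48, with groups apart but under 1.5-fold. With 75th percentile scaling they had -0.28 (unadjusted p = 0.06 from limma) and -0.24 (unadjusted p = 0.18 from limma). The adjusted p of Egr1 equalled the array's smallest, 0.155 from limma. In some limma fits it was under 0.05, with robust variance (0.0282), a pseudocount (0.0353) and dim probe sets left out (0.0275). With 75th percentile scaling it was 0.389. Of 5 genes of the glucocorticoid route 1 was higher and none lower, too few to be read against the 2.29% and 9.51% of all genes. Sgk1 (-0.57), Tsc22d3 (-0.22) and the receptor gene Nr3c1 (0.09) did not pass. Mt2A, a metallothionein, measured 484, 428 and 485 in fed and 1158, 785 and 622 in fasted rats. Its log2 change was 0.83 (standard error 0.22, adjusted p = 0.241 from limma), and the call was lost on linear means (0.88) and without fed replicate 2 and fasted replicate 1 together (0.53). Fkbp5, a cochaperone of the glucocorticoid receptor, measured 219, 245 and 209 in fed and 318, 270 and 310 in fasted rats, a log2 change of 0.42 (standard error 0.11), short of 1.5-fold. With 75th percentile scaling Fkbp5 had 0.66 and passed. Its other probe set gave 0.01.

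**Figure D4:**
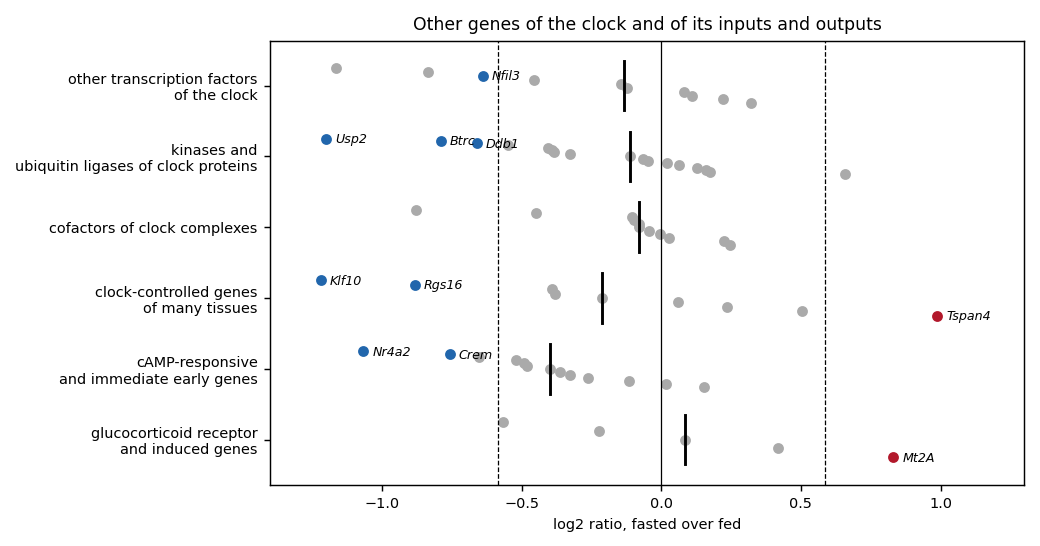
Log2 ratio of fasted over fed (x axis) for 65 genes in 6 lists around the clock; blue marks genes that were lower and red genes that were higher at 1.5-fold (dashed lines) and unadjusted p under 0.05, genes in grey did not pass both, and black bars are list medians. The medians run from -0.40 for cAMP-responsive and immediate early genes to 0.09 for the glucocorticoid route.

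Under the other settings Per1 and Nr1d1 kept their calls, and no setting turned the direction of Dbp, Bmal1, Nr1d2, Per2 or Cry2. The direction of Clock, Cry1 and Per3 turned under some.

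**Figure D5:**
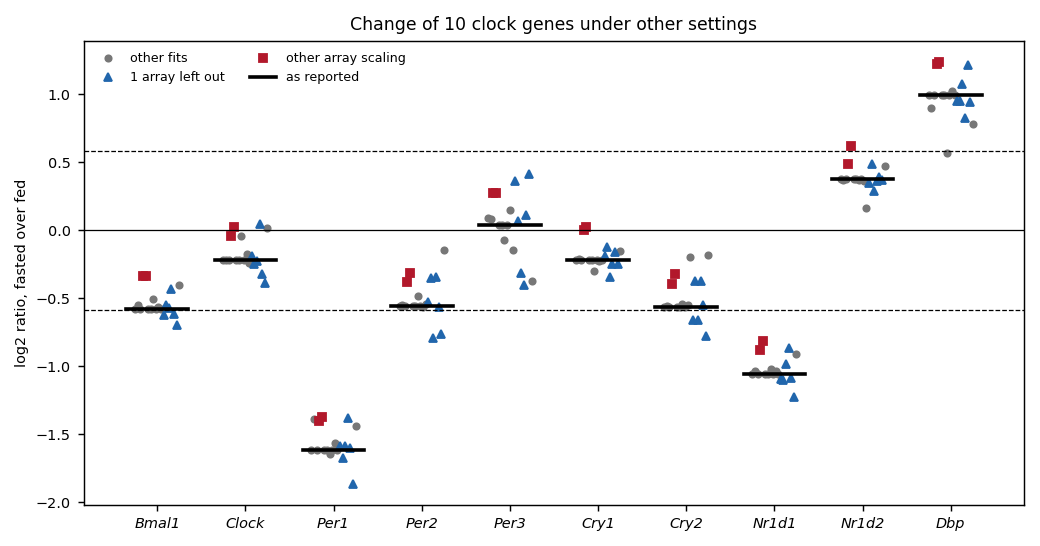
Log2 ratio of fasted over fed (y axis) of each clock gene as reported (black bar) and under 18 other settings (17 for Per3), with triangles for fits without 1 array, squares for other scalings of the arrays and circles for the rest; dashed lines mark 1.5-fold. Per1 spans -1.86 to -1.37, Nr1d1 -1.23 to -0.81 and Dbp 0.57 to 1.24.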

How the data were processed

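Total RNA of all isolates was extracted together and each isolate was hybridized on 1 Affymetrix array. The deposited values are linear intensities that the authors modelled in dChip, having first brought all arrays to the one of median intensity and taken mismatch probes as background. The version of dChip is not given in the sources used here. Raw scans were not used.

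From these, 57 control probe sets were left out, a floor was set at the 10th percentile (3.27), and fasted was compared with fed on the log2 values of 31042 probe sets in limma 3.58.1 (R 4.3.3; lmFit, then eBayes with the intensity trend). Tests were two-sided, without a block, and p was adjusted over all probe sets by Benjamini and Hochberg. The fit was checked on simulated data in which each probe set was drawn independently. Such data hold no brightness shift shared by an array, so the check does not bear on one. Labels call the isolates independent. Replicate numbers did not pair the arrays, with correlations of same-numbered deviations of -0.02, 0.10 and -0.08. The annotation gave 20826 probe sets 1 symbol, 436 several and 9780 none. All 10 gene numbers matched the current rat table (GRCr8). Named besides the members were genes of each wider list past both thresholds, the 2 with the largest moderated t, and the 5 most like Nr1d1 and Dbp. The members and lists were chosen with earlier results of these data known. Sequences are RefSeq's. Alternatives were a higher floor (25th percentile, 7.53), a pseudocount instead, leaving out dim probe sets, 75th percentile scaling, quantile normalization, no trend, robust variance, array weights (estimated with a convergence warning), a replicate block, unequal variances on linear means, the mean of all probe sets, leaving out each array and, chosen after seeing the data, leaving out 2 arrays. Python 3.11.15 and matplotlib 3.10.9 drew the figures.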

Additional observations from a re-analysis of the deposited data

How the results depend on the processing

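The number of clock genes lower was 2, and ranged from 2 to 4 when 1 array was left out, with 4 without fasted replicate 3, where Bmal1 (-0.70) and Cry2 (-0.77) passed as well. The number higher was 1 in each fit without 1 array, 2 with 75th percentile scaling, where Nr1d2 (0.62) joined Dbp, and 0 with array weights (Dbp 0.57), with linear means of unequal variances (Dbp 1.02) and without fed replicate 2 and fasted replicate 1 together (Dbp 0.78). Without 1 array, Bmal1 ranged from -0.70 to -0.43, Per2 from -0.79 to -0.35, Cry2 from -0.77 to -0.37, Clock from -0.39 to 0.04 and Per3 from -0.40 to 0.42. Clock turned to 0.023 with that scaling, 0.0435 without fasted replicate 1 and 0.017 without fed replicate 2 and fasted replicate 1 together. Cry1 turned to 0.0037 under quantile normalization and 0.027 with 75th percentile scaling. Per3 turned to -0.073 with array weights, -0.14 with the mean of its probe sets and -0.37 without those 2 arrays, and it was not tested with dim probe sets left out. The cause of these changes was not tested. With the replicate number as a block 2 clock genes were lower and 1 higher, Dbp at 0.99 (unadjusted p = 0.0256 from limma), and no call of the 10 changed; among the other genes named, Btrc (unadjusted p = 0.0510), Usp2 (0.0995) and Tspan4 (0.0534) lost theirs. Over all probe sets 2616 were lower and 737 higher as reported. They were 1501 and 1275 under quantile normalization, 1329 and 1430 with 75th percentile scaling, 6956 and 2469 with array weights, 5562 and 1536 without fasted replicate 3, and 1448 and 475 without fed replicate 1. The number of arrays and the low signal of Per3 limit what could be seen.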
